A study of Mus musculus with 16 samples.

Results

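The integrated stress response of mouse liver was described through 10 genes: the transcription factor genes Atf4, Atf3, Ddit3 and Nupr1, the effector genes Trib3, Chac1, Sesn2 and Ppp1r15a, and the hormone genes Fgf21 and Gdf15. They were chosen by name, with earlier results of these data known, from 24411 genes in the deposited tables, and all 10 were among the 12901 genes that passed a filter on low counts. Polyadenylated RNA of liver was sequenced from 4 groups with 4 libraries each. PF mice were pair-fed the control diet with vehicle, and EtOH mice received vehicle on the chronic and binge ethanol feeding protocol of the NIAAA model. PF+MBV and EtOH+MBV mice were on the same respective diets and were treated with matrix-bound nanovesicles (MBV), which are small vesicles held in extracellular matrix. Strain, age, sex, and the dose and source of the vesicles are not given in the labels. Whether the 4 replicates of a group came from 4 different mice is not stated, and a p-value here measures only the spread between these samples, which may be technical in part.

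The integrated stress response starts when a kinase that senses stress, such as PERK for unfolded protein in the endoplasmic reticulum or GCN2 for a lack of amino acids, phosphorylates the translation factor eIF2. Most translation then slows, while the mRNA of Atf4 is translated better because of short reading frames upstream of its coding sequence. ATF4 acts with C/EBP proteins on genes of amino acid supply, redox defence and cell death, and its target Ppp1r15a encodes GADD34, which brings a phosphatase to eIF2 and closes the loop. In the liver the response also reaches the blood through the hormones FGF21 and GDF15. RNA levels show neither the phosphorylation of eIF2 nor the translation of Atf4.

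The C/EBP-ATF composite element is the site at which ATF4 pairs with a C/EBP protein. It was searched as TGATGNAA on both strands from 250 bases before to 50 after the start of each gene, in RefSeq promoters of GRCm38.p6, where all 10 genes had an entry. At least 1 match was found in 5 of the 10 genes (50%), in 4.51% of all 27025 genes with an entry and in 30.4% of 23 other ATF4 target genes. The cyclic AMP response element TGACGTCA, which ATF and CREB proteins bind, was found for 1 of the 10 genes, Ppp1r15a, and for 2.03% of all genes, and no gene of the 10 held both motifs. The stretches around the matches are shown because the same 8 letters recur in 4 of these genes. Each is written 5′ to 3′ on the strand of the gene, and capitals mark the match, which for the composite element lies on the opposite strand.
Atf3: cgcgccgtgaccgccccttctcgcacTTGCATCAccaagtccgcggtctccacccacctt
Nupr1: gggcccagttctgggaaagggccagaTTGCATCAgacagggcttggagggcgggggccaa
Chac1: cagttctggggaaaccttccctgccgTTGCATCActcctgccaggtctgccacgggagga
Fgf21: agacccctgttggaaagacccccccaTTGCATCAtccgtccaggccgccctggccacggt
Ppp1r15a: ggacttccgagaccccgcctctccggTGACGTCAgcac
In GRCm38.p6 these stretches are chr1:191183410-191183469 (minus strand) for Atf3, chr7:126625547-126625606 (minus) for Nupr1, chr2:119351023-119351082 (plus) for Chac1, chr7:45615596-45615655 (minus) for Fgf21 and chr7:45526269-45526306 (minus) for Ppp1r15a. The match ran from base -110 to -103 relative to the start for both Atf3 and Nupr1, from -139 to -132 for Fgf21 and from -193 to -186 for Chac1. The stretches of Atf3 and Nupr1 lie inside the spans of longer annotated transcripts, and those of Chac1, Fgf21 and Ppp1r15a lie just upstream of the annotated gene. The match of Trib3 lay after the start, from base 15 to 22, and that of Ppp1r15a just before it, from -12 to -5. A match is a run of letters and does not show that a factor bound there, and the absence of one in the windows of Atf4, Ddit3, Sesn2 and Gdf15 says only that the letters are not in these windows.

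The libraries held 15271344 to 20493181 counts in genes and 15021 to 15856 detected genes each. The 8 hepatocyte markers summed to between 98492 and 157077 CPM in every library, where CPM is a gene's count relative to the library size, scaled by TMM, and Alb was at 62498 CPM or more. Reads that did not map made up 15.9% to 19.9% of the PF libraries and 11.9% to 13.8% of the EtOH libraries, and their part in the results was not tested. The first principal component of all tested genes, with 49.9% of the variance, separated the diets, and EtOH+MBV 1 lay between them at -0.254, against 41.2 to 49.6 for the other EtOH+MBV libraries and 38.6 to 54.9 for EtOH. EtOH 1 stood apart on the second component at -74.2, where the other 15 libraries lay between -17.8 and 24.7. EtOH 1 also held the highest sums of Kupffer cell markers (508 CPM) and of recruited macrophage markers (166 CPM). Some results that rest on either library are given with and without it. Counts of cell type markers and correlations within groups are given with all libraries only.

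All 4 transcription factor genes rose with ethanol. ATF4 is the factor through which the response acts, and its RNA was the steadiest of the 10 among the PF libraries. Atf4 was at 62.1, 67.3, 64.2 and 73.0 CPM in PF libraries 1 to 4 and at 177, 127, 184 and 196 CPM in EtOH libraries 1 to 4. Every EtOH library lay above every PF library, and the mean rose 2.57-fold from 66.7 ± 4.76 to 171 ± 30.2 CPM (SD, n = 4; log2 1.36 ± 0.16, standard error; adjusted p = 1.47e-05). These and the following adjusted p-values come from edgeR's quasi-likelihood test over all 12901 genes.

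ATF3 is a stress-induced partner of ATF4 and a repressor of inflammatory genes. Atf3 was at 1.34, 1.06, 2.74 and 2.36 CPM in PF and at 141, 45.3, 148 and 152 CPM in EtOH, so that 3 EtOH libraries lay close together and EtOH 2 well below them, still far above PF. The rise was 63.6-fold (log2 5.99 ± 0.93, adjusted p = 1.39e-04), the largest of the 10 in this contrast. Ddit3, which encodes the CHOP factor of stress-induced cell death, was at 3.18, 5.13, 3.89 and 5.34 CPM in PF and at 50.1, 12.7, 56.0 and 90.1 CPM in EtOH. EtOH 2 was again the lowest and EtOH 4 the highest, without overlap with PF, and the rise was 11.9-fold (log2 3.57 ± 0.63, adjusted p = 4.07e-04). Exons of Ddit3 overlap those of Mars over 68 bases and those of Gm4189 over 13 bases, both on the opposite strand. The libraries are not stranded, so those reads cannot be parted. A further annotated entry, also named Ddit3, overlaps its exons on the same strand over 105 bases. The annotation used for counting is not given, so whether both entries enter the Ddit3 counts is unknown.

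NUPR1 is a small chromatin protein induced by many stresses. Nupr1 was the least abundant of the 10, at 0.550, 0.814, 0.698 and 0.310 CPM in PF, and met the filter on low counts through libraries of the other groups. It was at 11.4, 3.55, 3.35 and 4.77 CPM in EtOH, with EtOH 1 more than 6 CPM above the other 3, and no overlap with PF. The rise was 9.63-fold (log2 3.27 ± 0.55, adjusted p = 2.89e-04) and stood at log2 2.69 without EtOH 1.

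**Figure D1:**
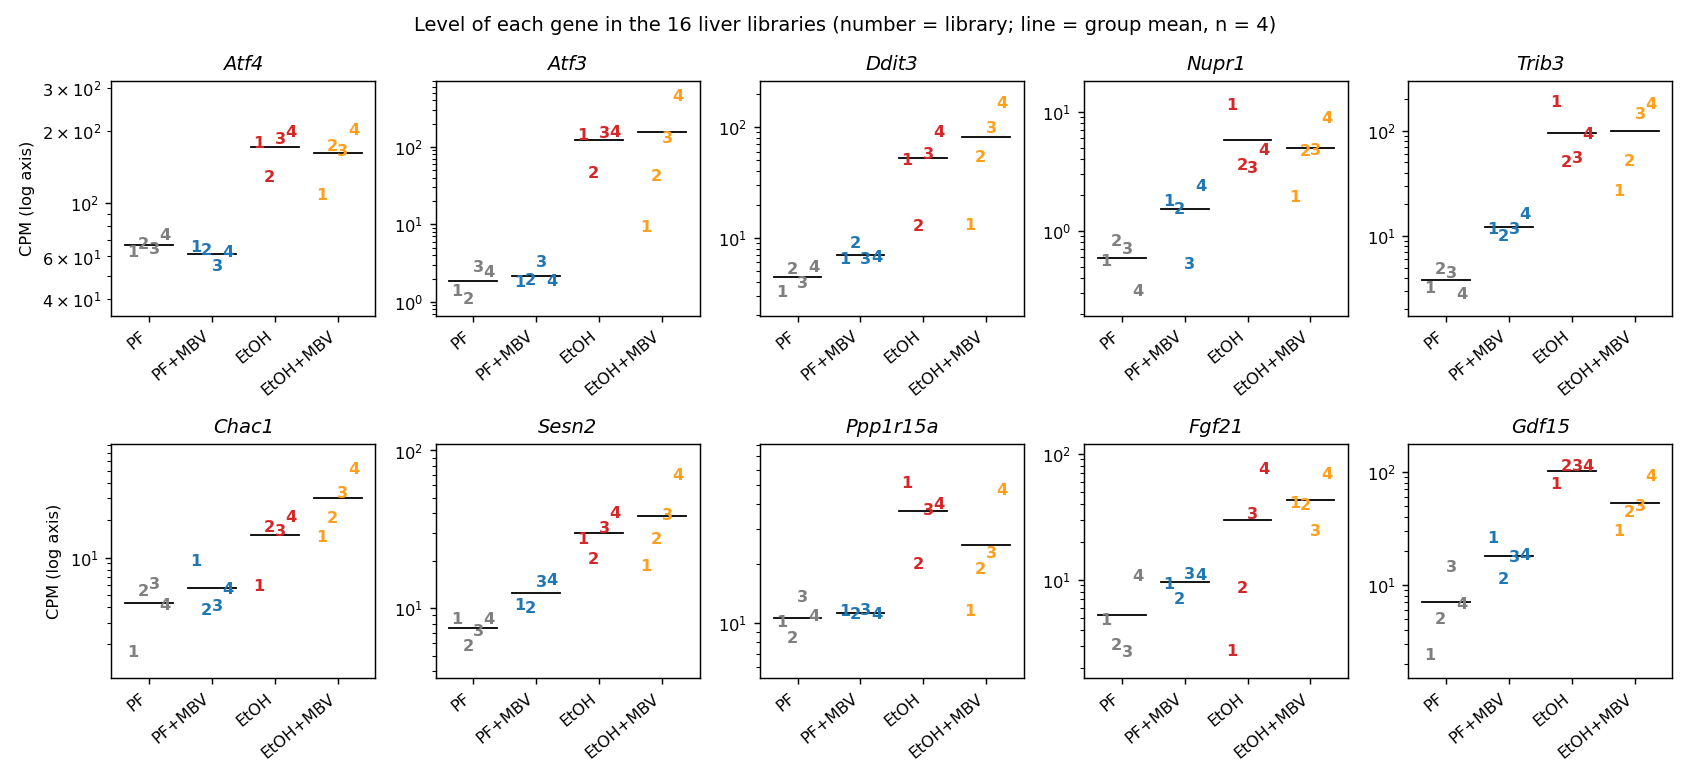
Level of each of the 10 genes in CPM (log axis) by group; each digit is a library with its replicate number, and the line is the mean of 4 libraries. Both ethanol groups lie above both pair-fed groups in the mean of every gene, and Atf3 runs from 9.04 to 441 CPM within EtOH+MBV.

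The 4 effector genes rose with ethanol as well. TRIB3 is a pseudokinase that binds AKT and ATF4. Trib3 was at 3.18, 4.82, 4.39 and 2.79 CPM in PF and at 185, 49.8, 54.8 and 92.4 CPM in EtOH, all above PF and highest in EtOH 1, and it rose 25.1-fold (log2 4.65 ± 0.58, adjusted p = 1.93e-05). CHAC1 breaks down glutathione. Chac1 was at 1.71, 5.38, 6.13 and 4.10 CPM in PF and at 5.90, 17.4, 16.3 and 21.0 CPM in EtOH. EtOH 1 lay within the range of PF, and the other 3 EtOH libraries lay above it. The rise was 3.46-fold (log2 1.79 ± 0.46, adjusted p = 0.00585).

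SESN2 senses leucine and restrains mTORC1. Sesn2 was at 8.43, 5.76, 7.13 and 8.51 CPM in PF and at 27.4, 20.3, 31.9 and 39.6 CPM in EtOH, with no overlap and a rise of 3.99-fold (log2 2.00 ± 0.33, adjusted p = 2.16e-04). Ppp1r15a, the GADD34 gene of the feedback arm, was at 10.0, 8.39, 13.4 and 10.8 CPM in PF and at 50.7, 19.7, 37.1 and 39.7 CPM in EtOH. The groups did not overlap, EtOH 2 was closest to PF, and the rise was 3.45-fold (log2 1.79 ± 0.34, adjusted p = 6.95e-04). Exons of Ppp1r15a overlap those of Tulp2 on the opposite strand over 12 bases.

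Both hormone genes rose with ethanol, Gdf15 evenly and Fgf21 unevenly. FGF21 is made by the liver in fasting and stress and acts on fat and brain, where it lowers the liking for alcohol and sugar. Fgf21 was at 4.76, 3.01, 2.64 and 10.6 CPM in PF and at 2.71, 8.55, 33.2 and 75.0 CPM in EtOH, so EtOH 1 and EtOH 2 lay within the range of PF and only EtOH 3 and EtOH 4 above it. The rise was 5.70-fold (log2 2.51 ± 0.72, adjusted p = 0.0112). It was log2 1.49 with adjusted p = 0.0720 without EtOH 4, log2 3.10 without PF 4, and its adjusted p was 0.0513 when only these groups were fitted. GDF15 acts through the receptor GFRAL in the hindbrain and lowers food intake. Gdf15 was at 2.38, 4.88, 14.3 and 6.64 CPM in PF and at 76.9, 110.2, 110.2 and 110.2 CPM in EtOH. The EtOH libraries were 5 times or more above every PF library, and 3 of them were nearly equal. The rise was 14.3-fold (log2 3.84 ± 0.44, adjusted p = 1.02e-05) and log2 4.46 without PF 3, the highest PF library.

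In the contrast of EtOH with PF, 10 of 10 genes were therefore called higher, and 20.4% of all tested genes were. The libraries of the groups did not overlap for 8 of the 10, against 15.9% of tested genes that were higher without overlap. The median log2 fold change was 2.89 over the 10 genes and 0.01 over all tested genes. All 10 calls stood without EtOH 1. Since the RNA is of whole tissue, more cells of a type and more RNA per cell cannot be told apart.

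Positions of the genes are those of GENCODE vM21 (GRCm38). Of the factors, Atf4 is at chr15:80255184-80257541, Atf3 at chr1:191170296-191218039, Ddit3 at chr10:127290774-127296288 and Nupr1 at chr7:126623249-126630861. Of the effectors, Trib3 is at chr2:152337422-152344032, Chac1 at chr2:119351229-119354381, Sesn2 at chr4:132492032-132510501 and Ppp1r15a at chr7:45522916-45526268. Of the hormones, Fgf21 is at chr7:45613886-45615490 and Gdf15 at chr8:70629393-70632456. Per kilobase of exon the order of the genes shifted. In PF, Atf4 led with 28.3 CPM per kilobase, followed by Fgf21 with 5.51 and Gdf15 with 3.80, and Nupr1 was last with 0.236. In EtOH, Atf4 was at 72.6 CPM per kilobase and Atf3, which had stood at 0.871 in PF, followed at 56.3, close to Gdf15 at 55.0. Trib3 reached 45.0, Fgf21 31.4 and Ddit3 30.5 CPM per kilobase, while Nupr1 stayed lowest at 2.29.

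With MBV on both diets, the same question was asked of group means from libraries that the first contrast did not compare. Here 10 of 10 genes were again called higher with ethanol, where 19.2% of all tested genes were. Both contrasts share the scaling and the spread per gene of the fit over 16 libraries, so their p-values are not independent. The groups did not overlap for 8 of the 10, again against 19.2% of tested genes. The factor Atf3 was at 1.76, 1.89, 3.17 and 1.83 CPM in PF+MBV and at 9.04, 41.9, 126 and 441 CPM in EtOH+MBV. Its highest ethanol library was 48.8-fold above its lowest, and all 4 lay above PF+MBV, and the difference was 70.8-fold (log2 6.15 ± 0.92, adjusted p = 1.63e-04). Without EtOH+MBV 4 it was log2 4.76. Atf4 was at 65.6, 63.8, 54.6 and 62.2 CPM in PF+MBV and at 108, 172, 164 and 201 CPM in EtOH+MBV, again without overlap (log2 1.39 ± 0.16, adjusted p = 2.72e-05). Ddit3 was at 6.40, 8.86, 6.40 and 6.59 CPM against 12.9, 53.5, 97.8 and 163 CPM. EtOH+MBV 1 was lowest and still above every PF+MBV library (log2 3.53 ± 0.61, adjusted p = 4.91e-04).

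Nupr1 was at 1.76, 1.51, 0.520 and 2.35 CPM in PF+MBV and at 1.92, 4.62, 4.77 and 8.73 CPM in EtOH+MBV. The groups overlapped, since EtOH+MBV 1 lay below PF+MBV 4 (log2 1.70 ± 0.50, adjusted p = 0.0143). Without EtOH+MBV 4 the adjusted p was 0.0673 at log2 1.29. Trib3 was at 11.5, 9.95, 11.6 and 15.9 CPM in PF+MBV and at 26.2, 51.3, 143 and 177 CPM in EtOH+MBV, with no overlap (log2 3.02 ± 0.52, adjusted p = 4.52e-04). The log2 difference of Trib3 had been 4.65 without MBV, from a lower level in the pair-fed libraries.

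Chac1 was at 9.22, 3.78, 4.06 and 5.55 CPM in PF+MBV and at 14.6, 20.8, 33.0 and 51.6 CPM in EtOH+MBV, with no overlap (log2 2.41 ± 0.45, adjusted p = 8.54e-04). Sesn2 was at 10.5, 9.95, 14.5 and 15.1 CPM against 18.3, 27.2, 38.6 and 69.0 CPM, also without overlap (log2 1.61 ± 0.32, adjusted p = 0.00114). Ppp1r15a was at 11.5, 11.1, 11.6 and 11.1 CPM in PF+MBV and at 11.5, 18.6, 22.6 and 46.8 CPM in EtOH+MBV. The level of EtOH+MBV 1 fell within the narrow range of PF+MBV, and the other 3 lay above it (log2 1.14 ± 0.33, adjusted p = 0.0149). Without EtOH+MBV 4 the difference of Ppp1r15a was log2 0.63 and missed the limit of 0.05 (adjusted p = 0.0882).

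Fgf21 was at 9.22, 7.03, 11.1 and 10.7 CPM in PF+MBV and at 40.3, 39.1, 24.1 and 68.1 CPM in EtOH+MBV. Here all 4 ethanol libraries lay above all 4 pair-fed libraries (log2 2.17 ± 0.69, adjusted p = 0.0213). The call was lost without EtOH+MBV 4 (adjusted p = 0.0671), PF+MBV 1 (adjusted p = 0.0515) or PF+MBV 2 (adjusted p = 0.0594). Gdf15 was at 25.6, 11.1, 17.4 and 18.3 CPM in PF+MBV and at 29.8, 43.7, 49.1 and 90.1 CPM in EtOH+MBV, with no overlap but a short distance between PF+MBV 1 and EtOH+MBV 1 (log2 1.55 ± 0.40, adjusted p = 0.00680). The number of the 10 called higher was 7 without EtOH+MBV 4, 9 without PF+MBV 1 or PF+MBV 2, and 10 without EtOH+MBV 1. The median log2 difference was 1.94 over the 10 genes and -0.01 over all tested genes.

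**Figure D2:**
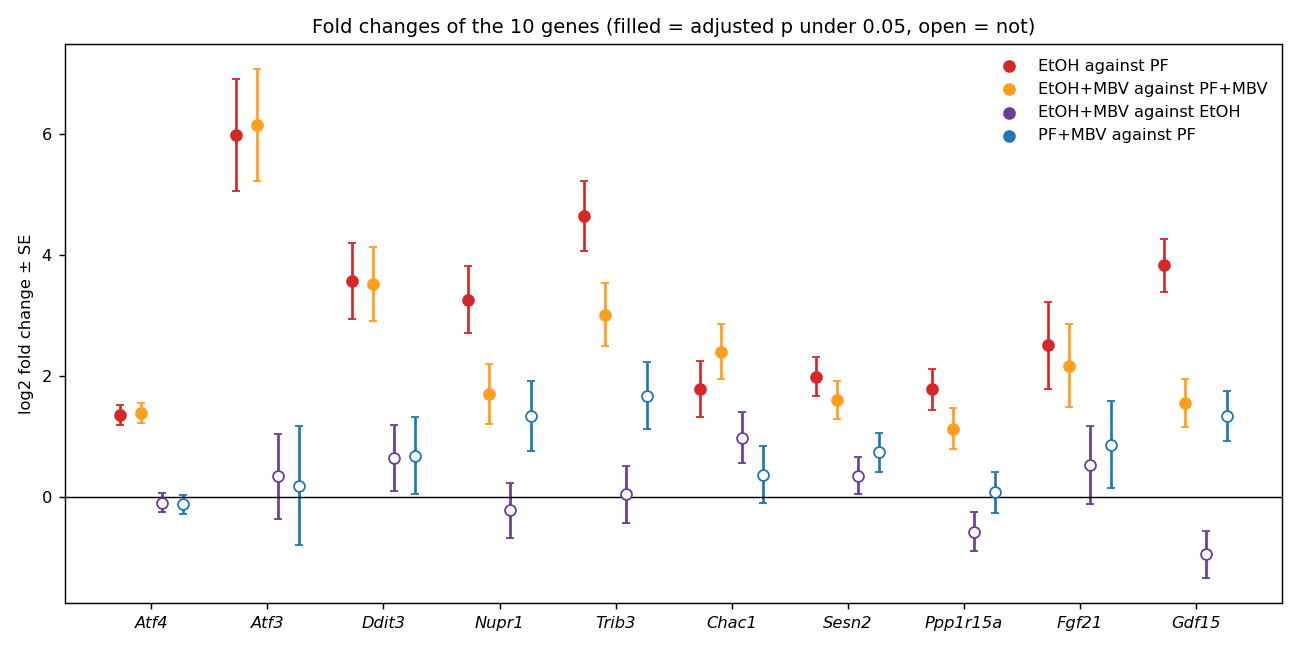
Log2 fold change of the 10 genes with its standard error in 4 contrasts; filled points have an adjusted p under 0.05 and open points do not. All 20 points of the diet contrasts (red and orange) are filled and above 0, and all 20 points of the MBV contrasts (purple and blue) are open.

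The means of the 10 genes fell in the same broad order, with both pair-fed groups below both ethanol groups. PF was the lowest group for 9 genes and PF+MBV for Atf4. No gene of the 10 passed the test between the pair-fed groups or between the ethanol groups. Between the higher pair-fed and the lower ethanol group, single libraries overlapped for Chac1, Nupr1, Ppp1r15a and Fgf21 and not for the other 6.

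On the ethanol diet, EtOH+MBV was compared with EtOH, and 0 of the 10 genes passed the adjusted p in edgeR, DESeq2 or limma voom, while edgeR called 1.24% of all tested genes higher and 1.45% lower. In edgeR 2 of the 10 had an unadjusted p under 0.05, Chac1 and Gdf15. Chac1, whose values are given above, was higher in the mean with MBV, at 30.0 ± 16.3 against 15.2 ± 6.50 CPM (log2 0.99 ± 0.43, adjusted p = 0.192). Gdf15 was lower in the mean, at 53.2 ± 25.9 against 102 ± 16.7 CPM, with 3 EtOH+MBV libraries below all EtOH libraries and EtOH+MBV 4 above EtOH 1 (log2 -0.94 ± 0.39, adjusted p = 0.173). The remaining 8 had log2 differences between -0.57 for Ppp1r15a and 0.65 for Ddit3, with standard errors of 0.16 to 0.70. The standard error was smallest for Atf4 (log2 -0.09 ± 0.16) and largest for Atf3 (log2 0.35 ± 0.70), whose value was -1.04 without EtOH+MBV 4. Without EtOH 1 and EtOH+MBV 1 none of the 10 was called either, and Nupr1, at log2 -0.22 with all libraries, was at 0.63.

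On the control diet, PF+MBV was compared with PF, and 0 of the 10 genes passed the adjusted p in edgeR, against 0.752% of tested genes called higher and 1.03% called lower. DESeq2 and limma voom each called 1 of the 10 higher, Trib3 and Gdf15 respectively. The shares above hold for edgeR on all groups only. Over the alternative fits of this contrast the number of all genes called ran from 45 to 2494. Of the 10 genes, 9 had a higher mean with MBV, 4 (Trib3, Gdf15, Nupr1 and Sesn2) had an unadjusted p under 0.05, and 3 were higher in every PF+MBV library than in every PF library, where 7.7% of all tested genes were. Trib3 was at 11.5, 9.95, 11.6 and 15.9 CPM with MBV and 3.18, 4.82, 4.39 and 2.79 CPM without, so that the libraries were more than 5 CPM apart (log2 1.68 ± 0.55, adjusted p = 0.122). It passed the limit when only these groups were fitted (adjusted p = 0.00123) and without EtOH 1 and EtOH+MBV 1 (adjusted p = 0.0123), which are not part of the contrast and enter only through the shared spread.

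Sesn2 was at 10.5, 9.95, 14.5 and 15.1 CPM with MBV and 8.43, 5.76, 7.13 and 8.51 CPM without, also separate (log2 0.75 ± 0.33, adjusted p = 0.254). Ddit3 was at 6.40, 8.86, 6.40 and 6.59 against 3.18, 5.13, 3.89 and 5.34 CPM, separate by about 1 CPM (log2 0.69 ± 0.63, adjusted p = 0.640). With only the pair-fed groups in the fit, the adjusted p was 0.0250 for Sesn2 and 0.0440 for Ddit3. Gdf15 was at 18.1 ± 5.93 against 7.04 ± 5.12 CPM, where PF 3 reached into the range of PF+MBV (log2 1.34 ± 0.42, adjusted p = 0.107). Without PF 3 the difference of Gdf15 was log2 1.96 with adjusted p = 0.0450. Nupr1 had adjusted p = 0.246 (log2 1.35 ± 0.58), and Atf4, the factor itself, was the gene with the lower mean (log2 -0.11 ± 0.16, adjusted p = 0.781).

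Whether the MBV difference depended on the diet was tested as an interaction, the MBV difference on ethanol minus that on the control diet. Of the 10 genes 1 passed, Gdf15, where 2.02% of all tested genes were called with a positive and 2.09% with a negative interaction. Its mean was higher with MBV on the control diet and lower with MBV on the ethanol diet, which left an interaction of log2 -2.28 ± 0.57 (adjusted p = 0.0367). Over the alternatives the interaction of Gdf15 ran from -2.90 to -1.98 with adjusted p from 0.0111 to 0.0783. The call ended in turn without PF 1 (log2 -1.98), PF 4 (-2.24), EtOH 2 (-2.24), EtOH+MBV 2 (-2.18), EtOH+MBV 3 (-2.23), PF+MBV 1 (-2.07), PF+MBV 3 (-2.29) or PF+MBV 4 (-2.28). Without PF 3 the interaction was log2 -2.90 (adjusted p = 0.0223). Trib3 (log2 -1.63 ± 0.72, adjusted p = 0.190) and Nupr1 (log2 -1.56 ± 0.74, adjusted p = 0.217) had the next largest values, and the other 7 lay between -0.65 for Ppp1r15a and 0.62 for Chac1.

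**Figure D3:**
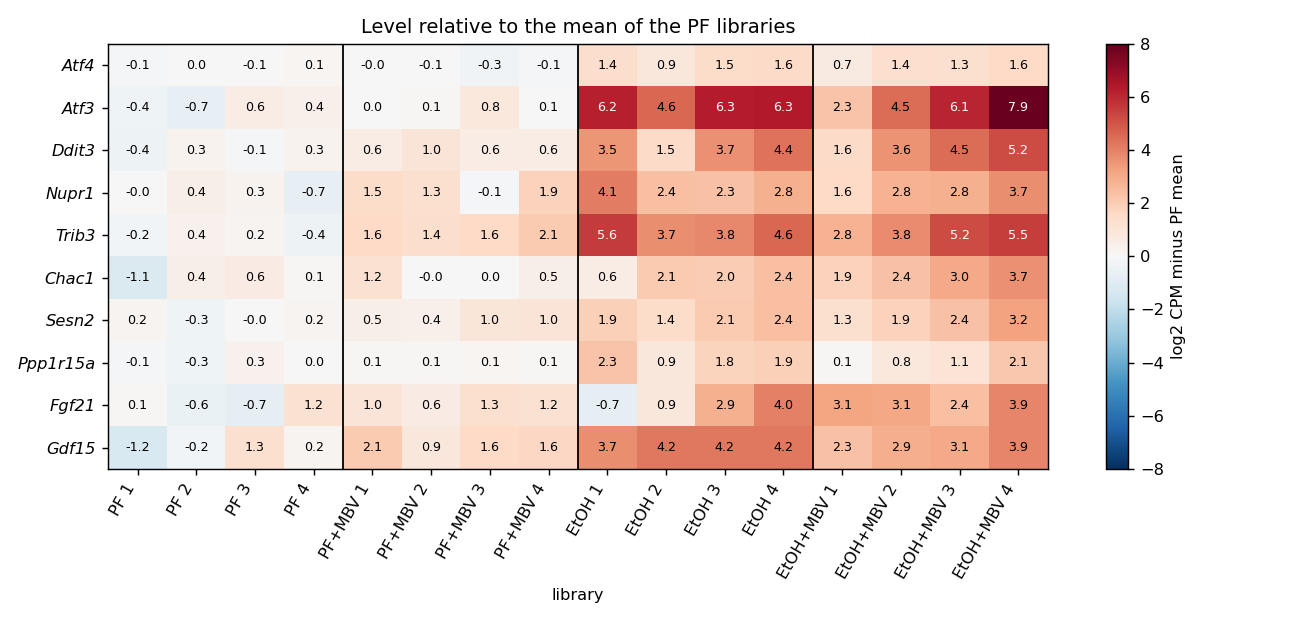
Log2 CPM of the 10 genes (rows) in the 16 libraries (columns), minus the mean of the 4 PF libraries; red is higher, blue lower, and each cell prints its value. In EtOH+MBV library 4 is the highest for all 10 genes and library 1 the lowest for 9, and EtOH 1 combines high Trib3 and Nupr1 with low Chac1 and Fgf21.

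Within the ethanol groups single libraries were high or low in many of the 10 genes at the same time. EtOH+MBV 4 was the highest of its group for 10 of the 10 genes, and EtOH+MBV 1 was the lowest for 9, all but Fgf21. The summed level of the 10 genes was 272 CPM in EtOH+MBV 1, 473 in EtOH+MBV 2, 704 in EtOH+MBV 3 and 1316 in EtOH+MBV 4. EtOH 2 was the lowest of its group for 6 genes and EtOH 4 the highest for 6, with sums of 415 and 820 CPM. EtOH 1 was the highest for 3 genes, Trib3, Nupr1 and Ppp1r15a, and the lowest for 3, Chac1, Gdf15 and Fgf21. In the pair-fed groups the sums stayed between 97.6 and 153 CPM, and no library was the highest for more than 4 of the 10 genes or the lowest for more than 5.

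After subtraction of each group's mean, the correlation of a gene with the mean of the other 9 over the 16 libraries described how far it moved with them. All genes share the libraries and their depth in this measure. The mean standardised deviation of the 10 genes from their group was -1.75 in EtOH+MBV 1 and 1.68 in EtOH+MBV 4. It stayed between -0.494 and 0.383 in the pair-fed libraries, so a few ethanol libraries weigh most in the correlations. A shift of many genes in a library, such as that of EtOH+MBV 1 on the first principal component, was not separated from a shift of the 10. Pearson's r was 0.91 for Atf3, 0.88 for Ddit3, 0.86 for Ppp1r15a, 0.85 for Atf4 and 0.83 for Sesn2, so these 5 moved most closely together. It was 0.71 for Trib3, 0.53 for Gdf15, 0.52 for Chac1 and 0.48 for Nupr1, and 0.18 for Fgf21, which moved least with the others. Among pairs, Atf4 and Ddit3 had the highest r at 0.94, and Nupr1 and Fgf21 the lowest at -0.37. Outside the 10, the tested genes most like their mean profile by this measure were Prune (r = 0.93), Tsc22d2 (0.93), Dusp16 (0.93), 4921524J17Rik (0.93), Rhoq (0.92), Ahi1 (0.92), Klf6 (0.92) and Taf15 (0.91). Of these 8, Klf6 had the largest difference between EtOH and PF, at 91.4 against 9.37 CPM in the mean (log2 3.29, adjusted p = 4.48e-05).

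Upstream of ATF4 stand the eIF2 kinases, the constitutive phosphatase partner and the nucleotide exchange factor eIF2B. In EtOH against PF 4 of 14 were higher and 1 lower, where 20.4% and 19.5% of all tested genes were, and the median log2 fold change was -0.07. Eif2ak3, the PERK gene, was at 14.6, 16.5, 13.5 and 13.8 CPM in PF and at 28.7, 27.8, 28.5 and 36.1 CPM in EtOH, without overlap (log2 1.05 ± 0.26, adjusted p = 0.00444). With MBV it was at 25.9, 38.3, 26.9 and 19.5 CPM in PF+MBV and at 14.3, 44.5, 36.4 and 31.5 CPM in EtOH+MBV, where the groups overlapped (log2 0.19 ± 0.25, adjusted p = 0.578); the interaction was not called (log2 -0.86 ± 0.36, adjusted p = 0.165). Eif2b3, an eIF2B subunit, rose from 10.1 ± 2.46 to 20.5 ± 3.21 CPM (log2 1.02 ± 0.19, adjusted p = 6.50e-04). In EtOH+MBV against PF+MBV 5 were higher and 3 lower, where 19.2% and 16.7% of tested genes were. Eif2ak2, which encodes the kinase PKR that senses double-stranded RNA, was lower with MBV on the ethanol diet, at 12.4 ± 2.08 against 20.02 ± 4.90 CPM (log2 -0.69 ± 0.16, adjusted p = 0.0315). That call ended without EtOH 1 (adjusted p = 0.0930), EtOH 2 (0.0745), EtOH+MBV 2 (0.0556), EtOH+MBV 3 (0.108) or EtOH+MBV 4 (0.0719), with library totals as the only scaling (0.0597), and when only these groups were fitted (0.244).

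Of 9 bZIP factors that can pair with ATF4, 5 rose and 1 fell with ethanol (median log2 0.73), where 20.4% of all tested genes were called higher and 19.5% lower. Cebpa, the hepatocyte C/EBP factor, fell from 431 ± 22.2 to 151 ± 38.2 CPM (log2 -1.52 ± 0.18, adjusted p = 1.16e-05), while Cebpb rose from 119.5 ± 32.4 to 227 ± 69.4 CPM (log2 0.93 ± 0.23, adjusted p = 0.00489) and Cebpd from 9.74 ± 3.94 to 20.2 ± 4.94 CPM (log2 1.04 ± 0.26, adjusted p = 0.00466). Jund, a JUN family member, rose 3.39-fold (log2 1.76 ± 0.21, adjusted p = 1.55e-05). With MBV on both diets 4 of the 9 were higher with ethanol and 1 lower, where 19.2% and 16.7% of all tested genes were.

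Further targets of ATF4 rose with ethanol in most cases. Of 30 listed genes 27 were tested, and 21 were higher and 1 lower in EtOH than in PF, where 20.4% and 19.5% of all tested genes were, with a median log2 fold change of 1.22. Phgdh, called higher and named here after its value was seen, was at 0 to 0.376 CPM in PF and 0.104 to 0.294 CPM in PF+MBV. Phgdh met the filter on low counts through ethanol libraries only, so its call was favoured by the filter. Psat1, an enzyme of serine synthesis, was at 0.244, 0.250, 0.648 and 0.621 CPM in PF and at 40.5, 11.3, 14.2 and 25.1 CPM in EtOH, with every EtOH library at least 10 CPM above PF (50.1-fold, log2 5.65 ± 0.73, adjusted p = 2.72e-05). Vldlr, a lipoprotein receptor, rose 10.2-fold (log2 3.36 ± 0.39, adjusted p = 1.05e-05). Ddit4, an inhibitor of mTORC1, reached 109 ± 22.9 CPM in EtOH, 6.81 times its mean of 15.9 ± 8.47 CPM in PF (log2 2.77 ± 0.33, adjusted p = 1.48e-05), and Slc3a2, the shared chain of amino acid exchangers, rose 2.33-fold (log2 1.22 ± 0.16, adjusted p = 3.74e-05). The gene that fell was Shmt2, an enzyme of mitochondrial one-carbon metabolism, named here after its value was seen, from 225 ± 2.23 to 150.2 ± 35.3 CPM (log2 -0.58 ± 0.15, adjusted p = 0.00729). In EtOH+MBV against PF+MBV, 21 of the 27 were higher and 1 lower (median log2 0.78), where 19.2% and 16.7% of all tested genes were. Between EtOH+MBV and EtOH 0 of the 27 passed in edgeR, where 5 were higher and 4 lower at an unadjusted p under 0.05, and DESeq2 called 1 higher and 1 lower.

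**Figure D4:**
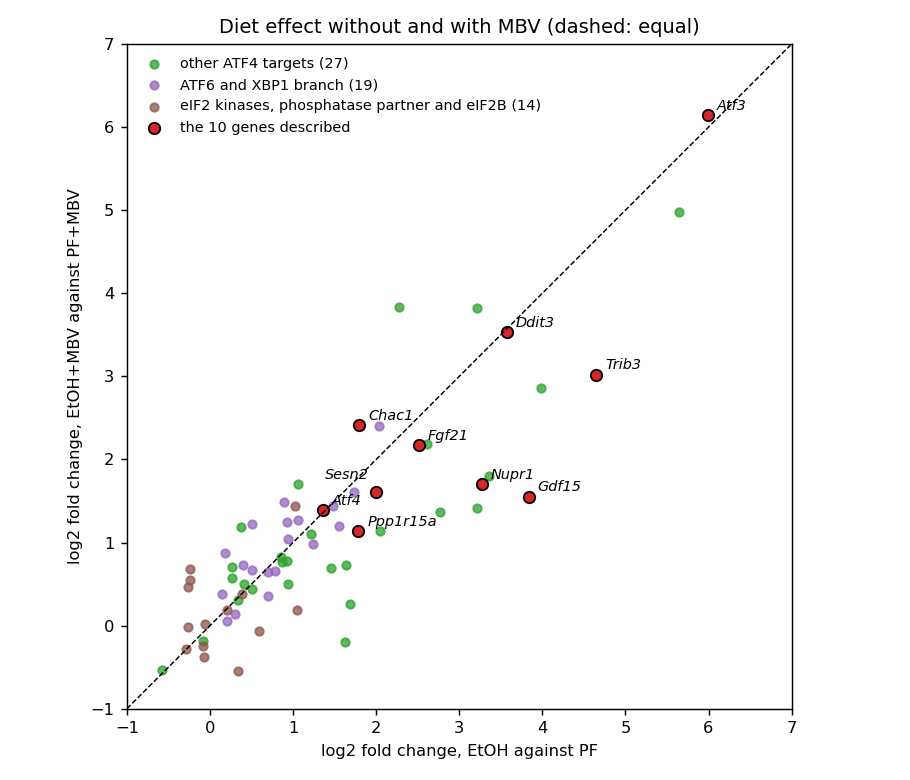
Log2 fold change of EtOH against PF (x axis) and of EtOH+MBV against PF+MBV (y axis) for the 10 genes (red, named), 27 other ATF4 targets (green), 19 genes of the ATF6 and XBP1 branch (purple) and 14 genes of the eIF2 kinases and eIF2B (brown). The dashed line marks equal values, and the contrasts compare different libraries within a shared fit. Atf3 (5.99 and 6.15), Atf4 (1.36 and 1.39) and Ddit3 (3.57 and 3.53) lie close to the line, while Gdf15 (3.84 and 1.55), Trib3 (4.65 and 3.02) and Nupr1 (3.27 and 1.70) lie below it.

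On the control diet with MBV, Ddit4 was the ATF4 target that was called, at 47.5, 35.8, 64.6 and 42.1 CPM in PF+MBV and at 12.2, 6.07, 25.2 and 20.2 CPM in PF, separate in all libraries (log2 1.57 ± 0.32, adjusted p = 0.0221). The call ended without PF 1 (adjusted p = 0.0975), PF+MBV 1 (0.0592), PF+MBV 3 (0.0643) or PF+MBV 4 (0.0505). Ppp1r15b, the constitutive partner of the eIF2 phosphatase beside the inducible Ppp1r15a, was lower with MBV on the control diet, at 109, 107, 119 and 102 against 178, 127, 190.2 and 175 CPM (log2 -0.61 ± 0.13, adjusted p = 0.0278). It was chosen after its value was seen, and its call ended without PF 1, 3 or 4 or PF+MBV 1, 2 or 4, with adjusted p from 0.0641 to 0.102. In the same contrast Ppp1r15a itself was at log2 0.08 ± 0.34.

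**Figure D5:**
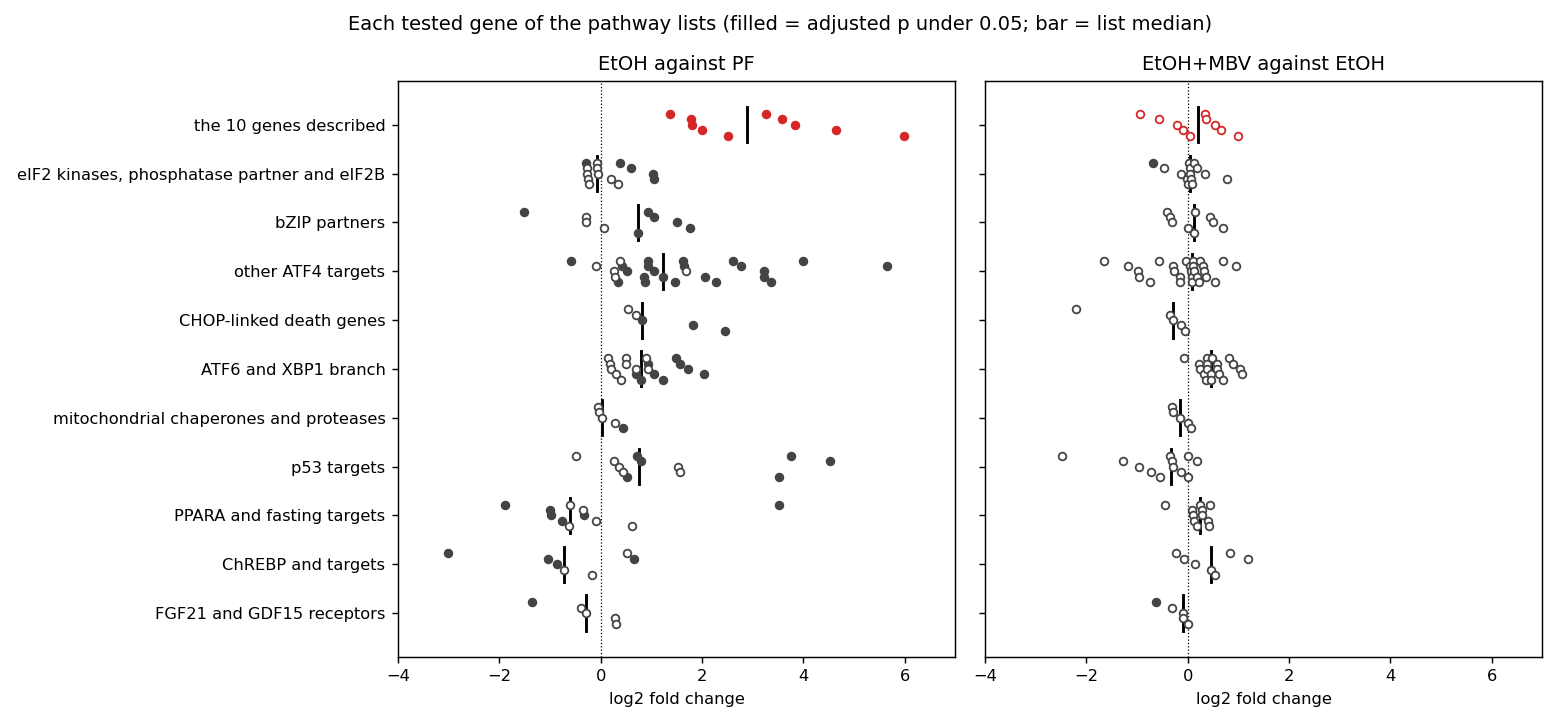
Log2 fold change of every tested gene of the 10 pathway lists and of the 10 genes described (red), in EtOH against PF (left) and in EtOH+MBV against EtOH (right); filled points have an adjusted p under 0.05, and the bar is the median of the list. The medians of the 10 genes and of the other ATF4 targets lie at 2.89 and 1.22 on the left and at 0.20 and 0.08 on the right.

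Genes of cell death downstream of CHOP rose in 3 of 5 cases with ethanol, where 20.4% of all tested genes were called higher. Bcl2l11, which encodes the death protein BIM, was at 13.1, 8.26, 12.0 and 8.32 CPM in PF and at 21.0, 73.7, 60.3 and 73.1 CPM in EtOH, lowest in EtOH 1 (log2 2.45 ± 0.38, adjusted p = 1.32e-04). Ero1l, an oxidase of the endoplasmic reticulum, rose 1.75-fold (log2 0.81 ± 0.18, adjusted p = 0.00195). The third, the death receptor gene Tnfrsf10b, was at 4.25, 0.465, 0.671 and 0.838 CPM in EtOH, and its log2 value of 1.82 was 0.55 without EtOH 1 (adjusted p = 0.339). Its call also ended without PF 1 (adjusted p = 0.0609) or PF 3 (0.0803) and in limma voom (0.146), and in 6 of its 16 alternatives in all.

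The ATF6 and XBP1 branch of the unfolded protein response, which runs beside the PERK arm, was higher in 9 of 19 genes with ethanol, where 20.4% of all tested genes were, with a median log2 fold change of 0.78. Hspa5, the chaperone BiP, was at 436, 801, 464 and 596 CPM in PF and at 1482, 681, 2727 and 2726 CPM in EtOH, with EtOH 2 inside the range of PF (log2 1.73 ± 0.45, adjusted p = 0.00634). Manf, a secreted factor of the endoplasmic reticulum, rose 2.94-fold (log2 1.56 ± 0.42, adjusted p = 0.00807) and Atf6 1.72-fold (log2 0.78 ± 0.14, adjusted p = 5.80e-04). Summed over the 19 genes, EtOH 1 and EtOH 2 were at 5066 and 4489 CPM and EtOH 3 and EtOH 4 at 9993 and 10470 CPM, beside 3493 to 4878 CPM in PF. In EtOH, Fgf21 was likewise lower in libraries 1 and 2 than in libraries 3 and 4. In EtOH+MBV the sum was 4720 CPM in library 1 and between 11274 and 14681 CPM in the other 3, whereas Fgf21 was second highest in library 1 and lowest in library 3, where the sum was highest. Of the 19 genes 13 were higher in EtOH+MBV than in PF+MBV, where 19.2% of all tested genes were. Over the 5 mitochondrial chaperones and proteases the median log2 value was 0.03 in EtOH against PF. Of the 5, 1 was called higher in each diet contrast, which is near the 20.4% and 19.2% of all tested genes called higher. These were the protease gene Lonp1 in EtOH against PF (log2 0.44 ± 0.15, adjusted p = 0.0322; 0.19 with adjusted p = 0.0908 without EtOH 1, and lost in 8 of its 18 alternatives, with adjusted p up to 0.117, among them those without PF 1, 2 or 3) and the chaperone gene Hspa9 in EtOH+MBV against PF+MBV, chosen after its value was seen (log2 0.46 ± 0.12, adjusted p = 0.00657).

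Sesn2, Atf3, Ppp1r15a and Gdf15 are also known as p53 targets, and 6 of 12 other p53 targets rose with ethanol, where 20.4% of all tested genes were called higher, with a median log2 fold change of 0.76. Cdkn1a, the p21 cell cycle inhibitor, was at 7.57, 4.82, 12.8 and 22.3 CPM in PF and at 198, 191, 346 and 356 CPM in EtOH (log2 4.52 ± 0.50, adjusted p = 8.07e-06). Trp53inp1 rose 13.4-fold (log2 3.75 ± 0.49, adjusted p = 3.20e-05) and Btg2 11.4-fold (log2 3.52 ± 0.52, adjusted p = 9.79e-05). In EtOH+MBV against PF+MBV 4 of the 12 were higher, where 19.2% of all tested genes were. With MBV on the control diet Cdkn1a was at 24.2, 30.0, 59.6 and 63.4 CPM, above the PF libraries in 4 of 4 cases (log2 1.90 ± 0.46, adjusted p = 0.0437), and the call ended without PF 1, 2 or 3 or any 1 of the PF+MBV libraries, with adjusted p up to 0.157. The p53 target list summed to 470 CPM in EtOH+MBV 1, where 9 of the 10 stress genes were lowest, and to between 1355 and 2435 CPM in the other EtOH+MBV libraries. Trp53inp1 weighed most in that sum, at 180, 1253, 742 and 1566 CPM in EtOH+MBV libraries 1 to 4. Cdkn1a and Btg2 were also lowest in EtOH+MBV 1, and Bax and Plk2 were not. Whether the p53 targets and the stress genes are linked was not tested.

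Other known regulators of Fgf21 were read beside it. PPARA induces Fgf21 in fasting, and of 11 genes of PPARA and its targets 5 fell and 1 rose with ethanol (median log2 -0.60), where 19.5% of all tested genes were called lower and 20.4% higher. Ppara was at 664, 462, 654 and 511 CPM in PF and at 76.7, 251, 178 and 113 CPM in EtOH (log2 -1.89 ± 0.31, adjusted p = 2.32e-04), and the target Cpt1a, which lets fatty acids into mitochondria, fell (1.98-fold lower, adjusted p = 1.50e-04). Pdk4, which shuts off pyruvate oxidation, rose 11.5-fold (log2 3.52 ± 0.76, adjusted p = 0.00193), and log2 2.80 without EtOH 3. ChREBP induces Fgf21 after carbohydrate, and of 7 genes of ChREBP and its targets 3 fell and 1 rose (median log2 -0.72), beside the same shares of all tested genes. Its own gene Mlxipl fell to 155 ± 60.5 CPM from 281 ± 58.1 CPM without ethanol (log2 -0.86 ± 0.24, adjusted p = 0.00900). G6pc, an enzyme of glucose output, was 8.06-fold lower (log2 -3.01 ± 0.56, adjusted p = 6.27e-04). The ChREBP list gene that rose was at log2 0.30 without EtOH 1, and its call ended in 7 of its 18 alternatives. Another of those that fell was at log2 -0.74 without EtOH 1, and its call ended in 6 of 18. In EtOH+MBV against PF+MBV the PPARA list had 1 gene higher and 4 lower and the ChREBP list 1 higher and 2 lower, where 19.2% of all tested genes were higher and 16.7% lower.

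FGF21 needs an FGF receptor together with the coreceptor beta-Klotho. Of 7 receptor genes for FGF21 and GDF15, 5 were tested. In EtOH against PF 1 of the 5 was lower, which is near the 19.5% of all tested genes that were. It was Fgfr2, from 20.7 ± 3.64 to 7.98 ± 3.13 CPM (log2 -1.36 ± 0.24, adjusted p = 3.94e-04). In EtOH+MBV against PF+MBV 1 was higher, Fgfr1 (log2 1.07 ± 0.17, adjusted p = 2.51e-04), and 3 lower, Fgfr2 (-1.74), Fgfr4 (-0.76) and Klb (-0.58). Of all tested genes 19.2% were higher and 16.7% lower there. Klb, the beta-Klotho gene, was lower with MBV on the ethanol diet, at 34.5, 26.6, 20.4 and 23.9 CPM in EtOH+MBV and 49.6, 46.0, 34.4 and 33.1 CPM in EtOH (log2 -0.63 ± 0.15, adjusted p = 0.0414). That call ended without EtOH 1 (adjusted p = 0.118), EtOH 2 (0.0933), EtOH+MBV 2 (0.0768), EtOH+MBV 3 (0.130) or EtOH+MBV 4 (0.0880), with library totals as the only scaling (0.0691), and when only these groups were fitted (0.264). Gfral and Ret, the receptor pair of GDF15, did not pass the filter on low counts and were at 0.573 CPM or less in every library.

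Markers of other cells that could carry these transcripts were read in the same libraries. The pancreas also makes Fgf21 and Nupr1, and the 10 acinar markers summed to at most 1.00 CPM in any PF library and at most 0.335 CPM in any ethanol library, with Cpb1 and Amy2a5 at 0 throughout. Fat also makes Fgf21, and the 5 adipocyte markers summed to 6.27 to 19.4 CPM in PF, 0 to 0.242 in EtOH, 3.28 to 66.5 in PF+MBV and 0 to 0.318 in EtOH+MBV, with Lep at 0 throughout and Cfd carrying nearly all of it. Counts of markers called with ethanol stand beside the 20.4% of all tested genes called higher and the 19.5% called lower. Of 7 Kupffer cell markers 1, Marco, rose, with sums of 260 to 350 CPM in PF and 158 to 508 CPM in EtOH. The 508 CPM was EtOH 1, while EtOH 2, 3 and 4 were at 223, 158 and 212 CPM, below every PF library. Of 7 tested recruited macrophage markers 3 rose and 1 fell (77.9 to 108 CPM in PF, 56.6 to 166 CPM in EtOH). The 166 CPM was also EtOH 1, while EtOH 2, 3 and 4 were at 79.7, 72.7 and 56.6 CPM. Of these, EtOH 3 and 4 lay below every PF library. Of 8 endothelial markers 6 fell and 1 rose with ethanol, with sums of 375 to 426 CPM in PF and 241 to 278 CPM in EtOH. Of 7 stellate cell markers 5 rose and 2 fell (232 to 248 CPM in PF, 228 to 326 CPM in EtOH). Cholangiocyte markers (6.52 to 17.4 and 16.5 to 23.5 CPM), lymphocyte markers (3.85 to 5.07 and 0.822 to 2.33 CPM) and neutrophil markers (2.81 to 11.3 and 2.73 to 11.2 CPM) were low in PF and EtOH. Of 4 tested cholangiocyte markers 1 rose, of 2 tested lymphocyte markers 1 fell, and of 4 tested neutrophil markers 0 were called. The lymphocyte sum was lower in every EtOH library than in every PF library. The part of the macrophage, endothelial, stellate and other cell types in the levels of the 10 genes was not tested.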

How the data were processed

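RNA was extracted with RNA-STAT60 and polyadenylated RNA selected on poly-T beads, per the labels' protocols. The authors deposited 1 table per library with raw counts of reads per gene from STAR, after Trimmomatic, on the mouse build mm10, per the submitters' processing notes. Versions, settings and annotation were not given in the sources used here. From each table the unstranded column was used, since one stranded column held 50.6% to 51.8% of the stranded reads. Reads with no gene feature (9.40% to 10.9% of a library) or an ambiguous one (1.35% to 1.69%) were left out. Libraries of a group differed by more than sampling noise (chi-square per degree of freedom at least 8.59).

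Genes were kept by filterByExpr (minimum count 10), libraries were scaled by TMM (factors 0.863 to 1.269), and the 4 group means were fitted together over the 16 libraries by quasi-likelihood in edgeR 4.0.16 (R 4.3.3). Adjustment was by Benjamini-Hochberg over the tested genes, with 0.05 as the limit. The standard error of a log2 value was worked back from the test, as the size of the log2 value over the square root of its F statistic. Log2 CPM used a prior count of 2. DESeq2 1.42.0, limma 3.58.1 voom, other scalings and filters, a replicate block and leaving out libraries were alternatives. The genes, lists and tests were chosen with earlier results of these data known. From each list the text names up to 4 genes with the smallest p in EtOH against PF and up to 2 in EtOH+MBV against EtOH, beside the 8 genes most like the 10. A gene that this rule would name is not reported here.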

Additional observations from a re-analysis of the deposited data

Results flagged for a closer look

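Among the 40 sets of 4 libraries formed by the 10 genes and 4 groups, 4 held a library far from the other 3 by Dixon's test at the 95% level, which chance does in about 1 of 20 sets. Atf3 was at 45.3 CPM in EtOH 2, below 141 to 152 CPM in the other EtOH libraries. Gdf15 was at 76.9 CPM in EtOH 1, below 110.2 CPM in each of the other 3. Among the PF+MBV libraries, Atf3 was at 3.17 CPM in library 3, above 1.76 to 1.89 CPM, and Ddit3 was at 8.86 CPM in library 2, above 6.40 to 6.59 CPM.

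The MBV difference of Gdf15 differed between the diets by log2 -2.28 ± 0.57 in edgeR's test of the interaction (adjusted p = 0.0367), with the library-wise values and the 8 libraries that end the call given above.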

How the results depend on the processing

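All 10 genes remained higher with ethanol in both diet contrasts under other scalings, filters, DESeq2, limma voom and the sum of the stranded columns, and leaving out 1 library left 9 or 10 called in EtOH against PF and 7 to 10 in EtOH+MBV against PF+MBV. Of the values of the 10 genes and alternatives computed, 907 kept their direction and side of the limit, 15 lost the call, 8 gained it and 40 changed sign, all 40 in contrasts where the gene was not called. The causes were not tested.

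Sign changes of log2 values in EtOH+MBV against EtOH were as follows. With library totals only Trib3 was at -0.19. In limma voom Atf4 was at 0.038 and Nupr1 at 0.32. With EtOH 1 and EtOH+MBV 1 left out, an alternative chosen after seeing the data, Atf4 was at 0.079 and Nupr1 at 0.63. Leaving out 1 library gave -1.04 to 0.75 for Atf3, -0.21 to 0.065 for Atf4, -0.62 to 0.37 for Nupr1, -0.086 to 0.60 for Sesn2 and -0.38 to 0.60 for Trib3, and in PF+MBV against PF -0.057 to 0.45 for Atf3 and -0.017 to 0.21 for Ppp1r15a. In the interaction, library totals gave -0.069 for Atf3 and -0.17 for Atf4, limma voom -0.074 for Atf3 and 0.19 for Ddit3, the stranded sum 0.10 for Ddit3, and both library 1s left out 0.29 for Ddit3. Leaving out 1 library gave interactions of -1.23 to 0.55 for Atf3, -0.094 to 0.18 for Atf4, -0.62 to 0.36 for Ddit3 and -0.92 to 0.68 for Fgf21.

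Between PF+MBV and PF the number of the 10 genes called higher was 0 in the fit of all groups, 1 in DESeq2, 1 in limma voom, 3 in the fit of these groups alone, 2 without both library 1s and 0 to 1 without 1 library. Other ATF4 targets called higher there numbered 1, and 2 in DESeq2, 6 in voom, 3 in the fit of these groups alone, 3 without both library 1s and 0 to 2 without 1 library. Those called lower numbered 0, and 3 in voom, 2 in the fit of these groups alone and 3 without both library 1s. Between EtOH+MBV and EtOH 0 were called in edgeR, 1 higher and 1 lower in DESeq2, 2 higher without both library 1s, and 0 to 2 in either direction without 1 library. In the interaction 0 of them were called in edgeR, 1 higher and 3 lower in DESeq2, 2 and 2 in voom, 1 lower with library totals, 2 higher without both library 1s and 0 to 1 in either direction without 1 library. Of the 10 genes, 0 to 1 were called with a negative interaction without 1 library. The number of all genes called moved with the alternatives too. It ran from 45 to 2494 in PF+MBV against PF, from 0 to 1169 in EtOH+MBV against EtOH and from 168 to 1410 in the interaction. Shares of all genes for each alternative are not set beside the counts above, so a general rise in calls is not parted from them.

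Library totals alone moved the median log2 value of all genes to -0.11 in EtOH+MBV against EtOH, -0.15 in EtOH+MBV against PF+MBV and -0.18 in the interaction. The share of higher among called genes moved from 46.1% to 30.6%, 53.5% to 35.0% and 49.2% to 26.6% there, and from 42.2% to 51.8% in PF+MBV against PF. All genes called numbered 347 (0 to 1169 over the alternatives) in EtOH+MBV against EtOH, 230 (45 to 2494) in PF+MBV against PF, 4633 (up to 7080) in EtOH+MBV against PF+MBV and 530 (168 to 1410) in the interaction.

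Same-numbered libraries correlated between -0.12 and 0.17 in 24 pairs, 3 of them over 0.1, so the numbers were not taken to pair the libraries. With the replicate block all 10 genes were called higher in both diet contrasts, Atf3 was at -0.26 and Trib3 at -0.0096 in EtOH+MBV against EtOH, Atf3 was at -0.58 in the interaction, and 1 other ATF4 target had a positive interaction. At this depth the PF levels of Nupr1 under 1 CPM rest on few reads, and 4 libraries per group limit the MBV contrasts.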
